A study of Drosophila melanogaster with 3 samples.

Results

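The genes described here encode the initiation (eIF), elongation (eEF) and release (eRF) factors of translation in Drosophila melanogaster. They were chosen by symbol, as the protein-coding genes of the Ensembl annotation whose name starts with eIF, eEF or eRF. The choice gave 54 genes of the 13945 protein-coding genes on the chromosome arms that the peak lists cover. By symbol, 44 encode initiation factors, 8 elongation factors and 2 release factors. Chromatin immunoprecipitation followed by sequencing (ChIP-seq) had been done with an anti-GFP antibody on whole embryos of both sexes, collected at 0 to 24 hours of age. All flies came from 1 transgenic line, chif-RA-GFP, whose Chiffon protein (the product of chif, RA form) carries GFP at the C terminus. The study holds 1 group of 3 biological replicates, and no library from untagged flies was analysed here. The positions given are those of a tagged transgene product in embryos that mix all stages and tissues of that age.

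Translation starts when eIF2 brings the initiator tRNA to the small ribosomal subunit, where eIF1, eIF1A and eIF3 hold it while the messenger RNA is scanned for a start codon. The eIF4 proteins bind the cap of the messenger and unwind it, eIF2B recharges eIF2 with GTP, and eIF5 and eIF5B let the large subunit join. The eEF proteins bring aminoacyl-tRNA and move the ribosome along, and eRF1 and eRF3 free the finished chain at a stop codon. Chiffon is the fly counterpart of Dbf4, the activator of the replication kinase Cdc7, and part of it binds the histone acetyltransferase Gcn5.

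Each gene was read in 5 region lists in the genome build dm6. The authors' IDR list keeps the regions that pass a test of reproducibility (irreproducible discovery rate) and holds 3684 peaks. The pooled list, made from all replicates together, holds 25066 regions, and each replicate list holds 30000 regions that include background. A gene counts as occupied when a summit, the highest point of a region, lies within 500 bp of any of its annotated start sites. Regions are ranked within their list by the authors' signal value, a score with no stated scale, so rank 1 is the highest. In the replicates, "highest regions" means the first 3684 by rank, as many as the IDR list holds. At that rank replicate 1 had a deposited −log10 q of 0.735, while the other replicates had 2.69 (replicate 2) and 2.91 (replicate 3). The sequencing depth of the libraries is unknown.

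An IDR summit lay at 16 of the 54 translation factor genes (29.6%), against 15.0% of all protein-coding genes. The 16 were eIF6, eIF1, eIF2A, eIF2D and eIF2beta, the eIF3 subunit genes eIF3c, eIF3d1, eIF3h and eIF3m, the cap-complex genes eIF4A and eIF4EHP, the elongation factor genes eEF1alpha1, eEF1gamma, eEF2 and eEF5, and the release factor gene eRF1. Among the highest regions, 17 genes were occupied in replicate 1 (background 14.2%), 15 in replicate 2 (15.3%) and 14 in replicate 3 (14.4%). Over the replicates this came to 28.4% ± 2.85 of the genes (SD, n = 3), and every replicate lay above its own background. The difference between these genes and all genes was not tested.

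Regions of any rank were found at 32 genes in the pooled list, against a background of 45.1%. Replicate 1 had a region at 23 genes (background 38.1%), replicate 2 at 36 (50.4%) and replicate 3 at 38 (50.5%), which averages 59.9% ± 15.1 (SD, n = 3). Replicate 1 stood below the others here, both for these genes and for all genes. In all, 16 genes had an IDR summit, another 16 had a pooled region but no IDR peak, 8 had a region in replicate lists alone, and 14 had no region in any list.

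**Figure D1:**
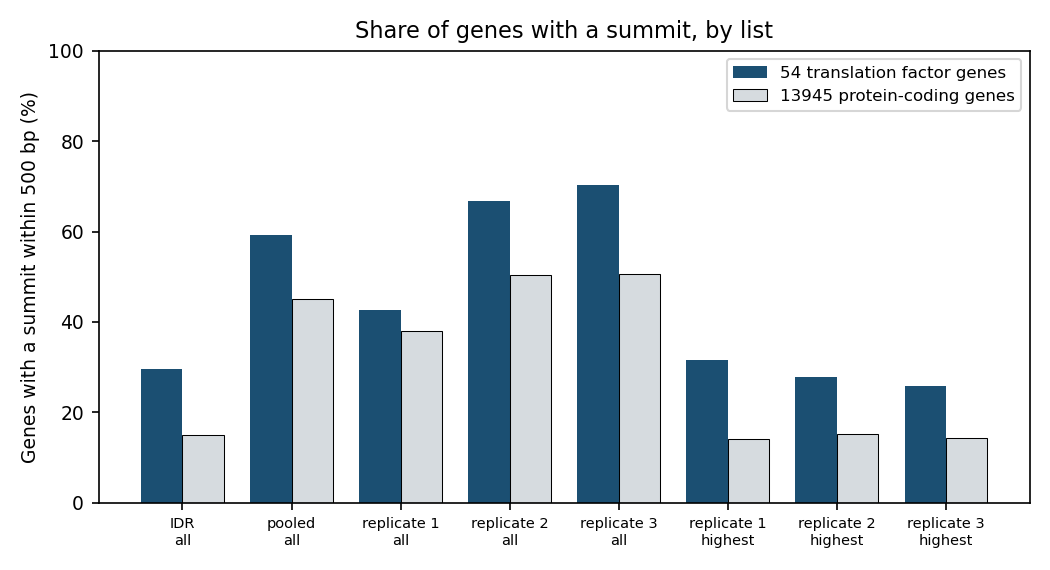
Percent of genes occupied in each list, with a window of 500 bp (y axis), for the 54 translation factor genes (dark bars) and the 13945 protein-coding genes (light bars). "All" means every region of the list and "highest" the first 3684 regions of a replicate. The translation factor genes reach 29.6% in the IDR list against 15.0%, and 42.6% in the whole list of replicate 1 against 38.1%.

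Sequence motifs known from fly core promoters were looked for within 100 bp either side of each summit, on both strands. The DNA replication-related element (DRE), TATCGATA, is bound by the factor DREF at many housekeeping promoters. It was present at 5 of the 18 separate summits of these genes (27.8%), against 7.13% of the 1641 IDR summits near protein-coding start sites. The other 13 summits lack it, and the difference in share was not tested. The windows that hold it are shown because, of the motifs searched at the summits, it had the highest ratio of its share here to its share at the promoter summits. They are given 5′ to 3′ on the strand of the factor gene, in dm6, with the DRE in capitals, and the eIF2A window is kept short because it lies in an annotated 5′ untranslated region.
eEF1gamma (chr3R:29220105-29220164, plus strand): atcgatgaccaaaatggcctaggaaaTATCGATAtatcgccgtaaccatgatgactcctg
eIF1 (chr3L:3223019-3223078, plus strand): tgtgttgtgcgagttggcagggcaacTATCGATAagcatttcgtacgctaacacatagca
eIF2A (chr3L:21824865-21824894, plus strand): ttactatcgctTATCGATAcaccgcgtaca
eIF4A (chr2L:5981686-5981745, plus strand): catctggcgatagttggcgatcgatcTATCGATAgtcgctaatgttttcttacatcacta
eRF1 (chr3L:20348304-20348363, plus strand): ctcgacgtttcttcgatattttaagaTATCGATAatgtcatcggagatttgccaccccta
The start site used is the nearest one of the factor gene. From it the fifth base of the DRE lay at -37 bp in eEF1gamma, -48 bp in eIF4A and -21 bp in eRF1. This base lay at -85 bp in eIF2A and -292 bp in eIF1. From the summit it was 21 bp upstream in eEF1gamma and 16 bp upstream in eIF2A. It was 26 bp downstream of the summit in eIF1, 39 bp in eIF4A and 53 bp in eRF1. The eIF1 summit lay nearer to RpL28 on the other strand, at -63 bp, so this DRE cannot be given to eIF1 alone.

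A DRE was not limited to occupied genes. Within 100 bp either side of the outermost start site it was found at 4 of the 16 genes with an IDR summit (25.0%) and at 9 of the 38 without one (23.7%), against 7.84% of all protein-coding genes. In the same windows the E box (CACGTG) was present at 4 of the 16 (25.0%), 1 of the 38 (2.63%) and 2.88% of all genes. The core of motif 7, CAGCNCT, was present at 6 of the 16 (37.5%), 4 of the 38 (10.5%) and 12.5% of all genes. In the same order, motif 1 (GGTCACAC) was present at 6.25%, 13.2% and 6.76%, and motif 6 (GTATNTTT) at 18.8%, 18.4% and 9.75%. TATAAA was present at 31.2%, 31.6% and 29.2%, and GAGAGAG at 0.0%, 2.63% and 3.69%. These shares were not tested, and a match describes the letters in a window, not binding of a factor.

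The polypyrimidine initiator (TCT) is a start-site element known from ribosomal protein and other translation genes of the fly. It was searched as TCTTT on the gene's strand, with its C within 5 bp of a start site. It was present at 4 of the 16 occupied genes, namely eEF2, eEF5, eIF3m and eIF4A, and at 1 of the 38 others, eIF3i. The shares were 48.9% of the 92 cytosolic ribosomal protein genes, 3.53% of the 2094 protein-coding genes with an IDR summit and 2.23% of all protein-coding genes. The eEF2 and eIF4A start sites are shown with TCTTT in capitals and with the annotated start at base 16 of 30, and in both the C lies 4 bp downstream of that start.
eEF2 (chr2L:21682102-21682131, minus strand): gtcgctgcagcgcctcgcTCTTTcctgtcg
eIF4A (chr2L:5981749-5981778, plus strand): cttttgcaagatggagccTCTTTtgcttgg

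The motifs other than the DRE and TCT were also counted in the windows around the summits. Motif 1, searched as GGTCACAC, matched at 2 of the 18 summits (11.1%, eEF1alpha1 and eIF2A), against 4.2% of the IDR promoter summits. Motif 6 (GTATNTTT) matched at 2 (11.1% against 10.6%), the core of motif 7 at 5 (27.8% against 15.8%), and the E box at 1, eEF2 (5.56% against 3.05%). TATAAA matched at 3 (16.7% against 30.7%) and GAGAGAG at 0 against 3.96%. No matches of different motifs shared bases in these windows. The GC content of the windows was 39.8% ± 6.37 (SD over 18 summits), against 37.2% ± 6.76 over all IDR promoter summits. In the highest regions of the replicates it was 40.6% ± 0.568 (SD, n = 3).

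**Figure D2:**
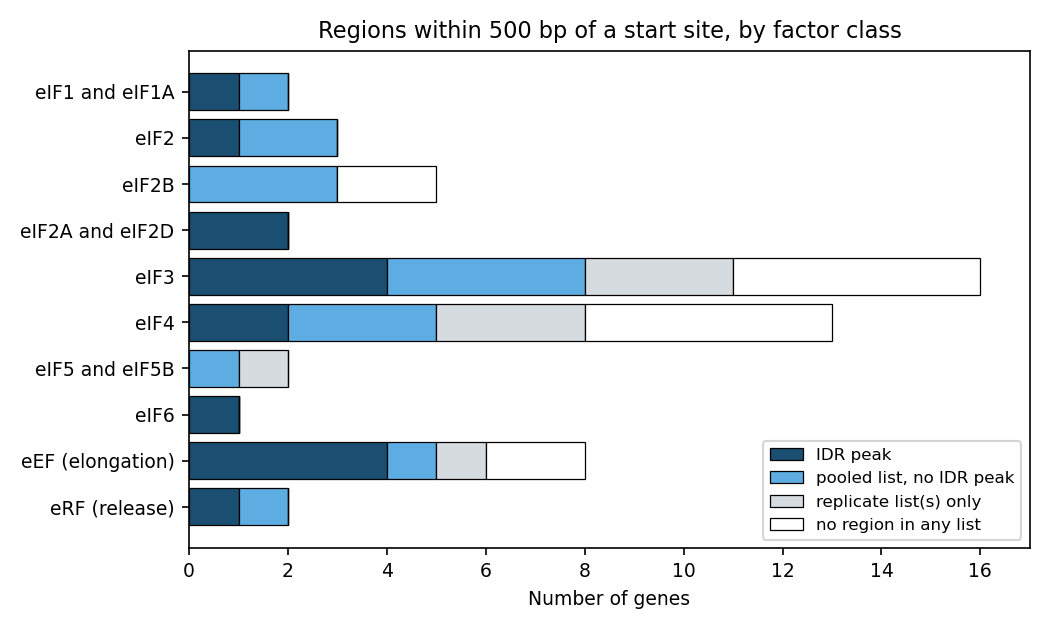
Number of translation factor genes (x axis) in each factor class (y axis), split by the most stringent list that held a summit in reach of the gene (500 bp). The bars show IDR peaks at 4 of 8 eEF genes, 4 of 16 eIF3 genes and 2 of 13 eIF4 genes, and at none of the 5 eIF2B genes.

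Among elongation factors, 4 of 8 genes had an IDR summit, 1 had a pooled region only, 1 had regions in replicate lists only and 2 had none. The strongest was eEF1gamma (FBgn0029176), a subunit of the complex that reloads eEF1alpha with GTP. Its peak on 3R at 29220051 to 29220255 had a signal value of 524 and rank 118 in the IDR list. The replicate regions ranked 148, 95 and 182 in replicates 1, 2 and 3. Their summits lay at -14, -36 and -19 bp from the start site, so all 3 placed the peak directly upstream of the start.

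eEF2 (FBgn0000559) encodes the translocase that moves the ribosome by a codon. Its peak on 2L at 21681909 to 21682304 ranked 770 (signal value 236), and the replicate ranks were 689, 1242 and 674. The IDR summit lay 9 bp inside the 5′ untranslated region, counted from the inner of a pair of start sites, and the replicate summits lay at -12, 0 and 3 bp. eEF5 (FBgn0285952) is the factor known elsewhere as eIF5A, which eases peptide bonds that are slow to form. Its peak on 2R at 24057588 to 24057983 ranked 1324 (174), with replicate ranks of 1023, 1470 and 2533 and a summit at -12 bp. In both genes the summits of the 3 replicates fell within 20 bp of each other or less.

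eEF1alpha1 (FBgn0284245) encodes the main carrier of aminoacyl-tRNA to the ribosome and has 4 annotated start sites. Its peak on 2R at 11891863 to 11892258 ranked 871 (219), with replicate ranks of 459, 1084 and 1327. The summit lay 61 bp upstream of an inner start site and 926 bp inside the gene as counted from the outermost one, in an annotated intron. Counted from the outermost start alone, the gene would not be occupied. Its paralog eEF1alpha2 had no pooled region, and its replicate regions ranked 17110, 20509 and 27850. eEF1beta had a pooled region at rank 9507. eEF1delta and eEFSec, the factor for selenocysteine, had no region in any list.

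Of the release factors, eRF1 (FBgn0036974), which reads the stop codon, had an IDR peak on 3L at 20348083 to 20348478 with rank 2121 (132). Its replicate ranks were 1415, 3627 and 6788, so replicate 3 placed it outside its highest regions. The replicate summits agreed closely in position, at -83, -80 and -74 bp. eRF3, the GTPase partner of eRF1, had a pooled region at rank 11090 and replicate ranks of 6930, 7470 and 12491, with no IDR peak.

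Among single-chain initiation factors, eIF6 (FBgn0034915) carried the highest peak of all 54 genes. eIF6 binds the large ribosomal subunit and keeps it from joining the small one too early. The peak on 2R at 23850292 to 23850532 ranked 70 in the IDR list (649) and 55, 86 and 100 in replicates 1, 2 and 3. The IDR summit lay at -114 bp and the replicate summits at -92, -114 and -122 bp. All lists thus gave a high rank and nearly the same position. An antisense RNA gene, asRNA:CR45928, starts 29 bp from the eIF6 start on the other strand, and the summit lay 85 bp inside it.

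eIF1 (FBgn0035423), which guards the choice of start codon, came next among them with rank 347 (332) on 3L at 3222922 to 3223097. The replicate ranks were 183, 286 and 1466, and replicate 3 was lower than the others. A weaker pooled summit at -119 bp ranked 7322 (60.2). The IDR summit lay at -318 bp from eIF1 but at -63 bp from RpL28, a ribosomal protein gene on the other strand whose nearest start is 381 bp away. The peak cannot be given to eIF1 alone, and with each summit given only to its nearest start site eIF1 is not occupied. eIF1A, which works beside eIF1 on the small subunit, had a pooled region at rank 8084 and none in replicate 1.

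eIF2A (FBgn0037135) and eIF2D (FBgn0041588) can place a tRNA on the ribosome without the eIF2 complex in other systems. Both had an IDR peak. That of eIF2A on 3L at 21824698 to 21825093 ranked 1339 (173), with replicate ranks of 2122, 1824 and 941. Its replicate summits lay within 11 bp of each other, at -58, -69 and -69 bp from the inner start site. That of eIF2D on 3R at 29151652 to 29152047 ranked 2315 (125). Its replicate ranks were 9124, 2049 and 1601, and replicate 1 also placed the summit apart, at -197 bp against -59 and -75 bp.

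The eIF2 complex itself had an IDR peak at 1 of its 3 subunit genes and a pooled region at all 3. The eIF2beta peak (FBgn0004926, 3L 12526828 to 12527223) had rank 3358 (97.7) and was the lowest of the 16 genes. Its replicate ranks were 20027, 4597 and 2566, so only replicate 3 held it among its highest regions. The summit lay far upstream in each, at -292, -295 and -273 bp. eIF2gamma, whose 5′ exons are shared with the heterochromatin gene Su(var)3-9, had a pooled region just below the IDR list at rank 4103 (85.9) and replicate ranks of 3359, 6740 and 4223. eIF2alpha had a pooled region at rank 13913.

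None of the 5 genes for eIF2B, the exchange factor that recharges eIF2, had an IDR summit within 500 bp. The share over all protein-coding genes was 15.0%. eIF2Bgamma, eIF2Bepsilon and eIF2Bdelta had pooled regions at ranks 6228, 7408 and 24560, and replicate 1 had a region at none of the 5. eIF2Balpha and eIF2Bbeta had no region within 500 bp in any list. Of these, eIF2Bbeta starts 674 bp downstream of the summit of a peak on X at 2703714 to 2704067, which ranked 4 in the IDR list (1570.6) and 4, 4 and 8 in the replicates. That summit lay 45 bp upstream of Ugalt, a gene for a UDP-galactose transporter, the gene listed in its reach.

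The scaffold eIF3 had the most genes, 16, of which 4 had an IDR summit, 4 a pooled region only, 3 replicate regions only and 5 none. The eIF3h peak (FBgn0022023) on 2L at 5052294 to 5052689 ranked 573 (268), with replicate ranks of 522, 675 and 931. Its summit lay in an intron, 288 bp downstream of an inner start site and 602 bp inside the gene as counted from the outermost one. The replicate summits lay at 288, 287 and 249 bp from the inner start. Another IDR peak with its summit 250 bp closer to the start sites, at 38 bp from the inner one and 352 bp from the outermost, ranked 2504 (119). The nearest replicate regions ranked 12882, 1514 and 4796. Counted from the outermost start alone, only this weaker peak is in reach of eIF3h. Both summits also lay within 500 bp of senju, which starts 63 bp from the inner eIF3h start on the other strand.

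The eIF3c peak (FBgn0034258) on 2R at 17665511 to 17665906 ranked 648 (254) and 423, 630 and 1013 in the replicates, with its summit 31 bp inside the 5′ untranslated region. That of eIF3m (FBgn0033902) on 2R at 14164709 to 14165104 ranked 1957 (139) and 1268, 2884 and 2282 in the replicates. Its summit lay between the start sites of eIF3m (-82 bp) and CG8323 (-144 bp). That of eIF3d1 (FBgn0040227) on 3R at 23679789 to 23680184 ranked 2726 (113), with replicate ranks of 2939, 2966 and 4936, the last outside the highest regions of replicate 3. In mammals the eIF3d subunit can bind the cap.

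eIF3k, eIF3a, eIF3f1 and eIF3b had pooled regions at ranks 4966, 5030, 5699 and 9276. eIF3e, eIF3j and eIF3l had regions in replicates 2 or 3 alone, at rank 8807 or lower. The paralogs eIF3d2, eIF3f2, eIF3g1 and eIF3g2 and the gene eIF3i had no region in any list. Within the pairs eIF3d1 and eIF3d2, and eIF3f1 and eIF3f2, regions were found at the first gene alone, and neither eIF3g gene had one.

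In the cap-complex class, IDR peaks were found at 2 of 13 eIF4 genes (15.4%), near the 15.0% of all protein-coding genes. eIF4EHP (FBgn0053100) encodes a cap-binding protein that represses translation and in the fly embryo acts on caudal mRNA with Bicoid. It had a peak on 3R at 24108915 to 24109310 with rank 766 (236) and replicate ranks of 536, 807 and 884. The replicate summits were spread over 173 bp, at -304, -131 and -205 bp. Another IDR peak nearer to CG18428, at -360 bp from eIF4EHP and -16 bp from CG18428, ranked 1828 (145). The same regions of replicates 1 and 3 were matched to both peaks, so the spread does not measure the placing of the stronger peak alone. The start sites of the pair lie 376 bp apart on opposite strands, and both peaks are within reach of both genes.

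eIF4A (FBgn0001942), the helicase that unwinds the 5′ end of messengers, had a peak on 2L at 5981479 to 5981874 with rank 2605 (116). The nearest replicate regions ranked 8949, 4340 and 3720, all outside the highest regions, and their summits lay at -25, -87 and -142 bp. Replicate 1 also held another overlapping region at rank 2378, within its highest, with a summit at -228 bp. eIF4E1, the main cap-binding protein, had a pooled region at rank 6066 and replicate 3 placed it at 2841, while replicate 1 had none. eIF4G2 and eIF4H1 had pooled regions at ranks 6868 and 9490. The scaffold gene eIF4G1, the only one of the 54 on chromosome 4, had a single region, at rank 21764 of replicate 2. eIF4E6 and eIF4H2 had regions at rank 10067 or lower in replicate lists alone.

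Genes with no region at all included 4 of the 6 numbered eIF4E genes, namely eIF4E3, eIF4E4, eIF4E5 and eIF4E7. eIF4E3 is known as a testis form of the cap-binding protein. eIF4B was the other eIF4 gene with none. It lies on 3L at 27842669 to 27858271, and the nearest pooled summit was 149951 bp away and the nearest IDR summit 4979386 bp away. Over the 14 genes with no region, the nearest pooled summit lay at a median of 1975 bp and the nearest IDR summit at 23246 bp. Whether these genes could have been measured in each library was not tested.

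The remaining initiation factors, eIF5 and eIF5B, had no IDR summit. eIF5B, the GTPase for subunit joining, had a pooled region at rank 4113 (85.8), with replicate ranks of 2143, 10503 and 6056. eIF5, which makes eIF2 hydrolyse its GTP, had only a region at rank 23219 of replicate 3. Around the end of the IDR list, the last factor gene inside was eIF2beta with 97.7 and the first outside were eIF2gamma with 85.9 and eIF5B with 85.8. The list itself ended at a signal value of 92.4.

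**Figure D3:**
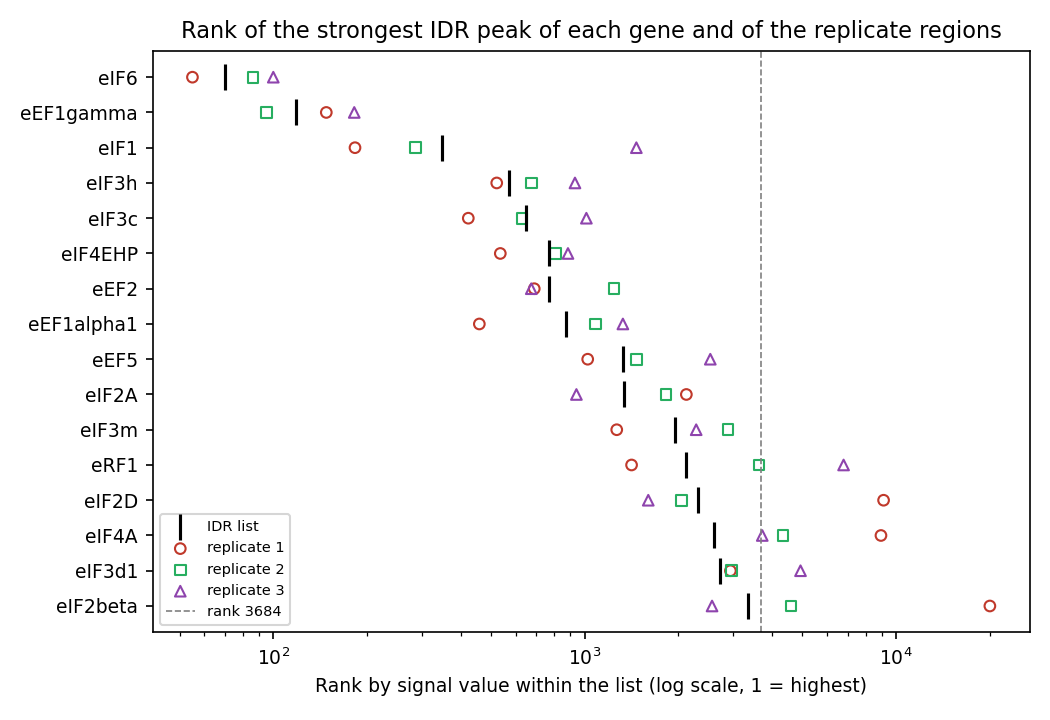
Rank by signal value (x axis, log scale, 1 = highest) of the strongest IDR peak of each of the 16 occupied genes (black bars) and of the region nearest its summit in replicates 1, 2 and 3 (coloured symbols). The dashed line marks rank 3684. eIF6 lies at 100 or higher in all 4 lists, while eIF2beta spans 2566 to 20027 in the replicates.

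Support from the replicates was fullest for the strongest peaks. The IDR list was itself made from these replicates, so its ranks are not separate from theirs. For 11 of the 16 genes (68.8%) the strongest IDR peak overlapped the highest regions of all 3 replicates, against 63.3% of the 1641 IDR peaks at protein-coding start sites. The first share takes only the strongest peak of a gene and the second counts every peak, so they are not like measures. These 11 were eIF6, eEF1gamma, eIF1, eIF3h, eIF3c, eIF4EHP, eEF2, eEF1alpha1, eEF5, eIF2A and eIF3m, which are the 11 genes with the highest IDR ranks. eIF2D was missing in replicate 1, eIF3d1 and eRF1 in replicate 3, eIF2beta in replicates 1 and 2, and eIF4A in replicates 2 and 3. The 16 nearest regions had median ranks of 856, 1356 and 1396.5 in replicates 1, 2 and 3. Among the highest regions but without an IDR peak were eIF2gamma, eIF3k and eIF5B in replicate 1, eIF3a in replicate 2 and eIF4E1 in replicate 3. Each of these was found in 1 replicate.

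The strongest peaks of the 16 genes had a median signal value of 197 and a median IDR rank of 1097.5. Of the 16, 10 (62.5%) were among the 1842 strongest IDR peaks. All IDR promoter summits, weaker summits of a gene included, had medians of 152 and 1687, and 54.0% were among the 1842. Counted in that way, with each of the 18 factor summits once, the medians were 174 and 1331.5, and 11 (61.1%) were among the 1842. Signal values of the strongest peaks ran from 649 at eIF6 to 97.7 at eIF2beta.

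**Figure D4:**
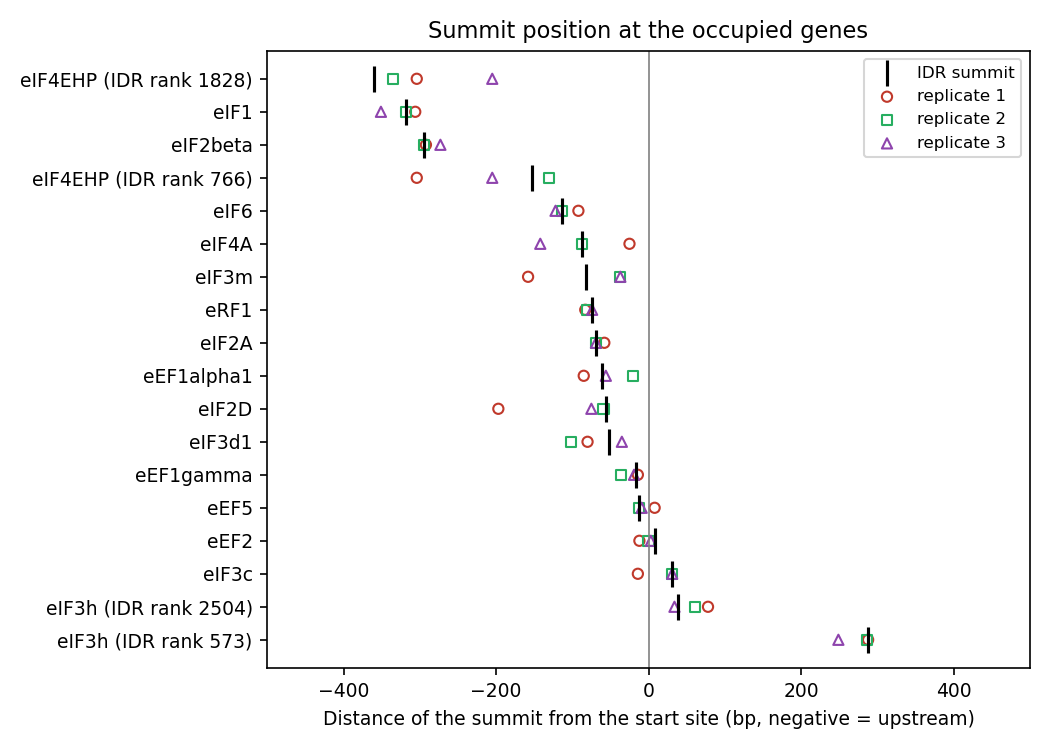
Distance of each IDR summit (black bars) and of the nearest overlapping replicate summit (coloured symbols) from the start site of the factor gene (x axis, bp, negative upstream), for the 18 summit positions at 16 genes. Of the 16 genes, 11 have their strongest IDR summit within 100 bp of the start, with eIF1, eIF2beta and the weaker eIF4EHP peak farther upstream and the stronger eIF3h peak inside the gene.

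Most summits lay just upstream of a start site of the gene. The median offset of the strongest peak of each gene, from the nearest start of that gene, was -65 bp. It was also -65 bp with each of the 18 summits counted. Over all IDR promoter summits it was -97 bp. Those were each counted and measured from the nearest start of any protein-coding gene. The offsets, and the shares within 100 bp and upstream, are thus not like measures. Among their highest regions the medians of the 3 replicates were -83, -37 and -46.5 bp, averaging -55.5 ± 24.3 bp (SD, n = 3). The distance was 100 bp or less at 11 of the 16 genes (68.8%) and at 12 of the 18 summits (66.7%), beside 44.4% of IDR promoter summits. The strongest summits lay on the upstream side at 13 of the 16 genes (81.2%), and 14 of the 18 summits did (77.8%), beside 84.5%. The exceptions were eEF2, eIF3c and eIF3h. Among the 13, the eEF1alpha1 and eIF2A summits were upstream of an inner start site only. They lay inside the gene, 926 and 156 bp from the outermost start. The summits of the 3 replicates spanned a median of 44.5 bp over the 18 positions, from 9 bp at eRF1 to 173 bp at eIF4EHP. At eIF4EHP the same regions of replicates 1 and 3 were matched to both IDR peaks. The median was 50 bp over the 1568 IDR promoter summits with a region in every replicate.

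A majority of the occupied genes had the peak to themselves. For 10 of the 16 no other annotated gene started within 500 bp of an IDR summit. The other 6 shared it, eIF1 with RpL28 and a small nucleolar RNA gene, snoRNA:Or-CD11a, eIF3h with senju, eIF3m with CG8323, eIF4EHP with CG18428, eRF1 with Rbbp5, which encodes a subunit of histone methyltransferase complexes, and eIF6 with its antisense RNA. Every partner is on the opposite strand. With protein-coding partners alone, 5 of 16 (31.2%) shared a summit, beside 57.4% of the 2094 protein-coding genes with an IDR summit. The summit was nearer to the factor gene than to the partner for eIF3h, eIF3m, eRF1 and the stronger eIF4EHP peak, and nearer to the partner for eIF1, eIF6 and the weaker eIF4EHP peak.

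Shared promoters were also compared across occupied and other genes. Of the 54 genes, 22 (40.7%) have a protein-coding start site on the opposite strand within 500 bp, beside 27.8% of all protein-coding genes. An IDR summit was present at 6 of these 22 (27.3%) and at 10 of the other 32 (31.2%). Over all protein-coding genes the shares were 29.3% and 9.52%. The contrast between the factor genes and all genes was not tested. By chromosome, IDR summits were found at 3 of 6 factor genes on 2L, 5 of 13 on 2R, 4 of 12 on 3L, 4 of 15 on 3R, 0 of 7 on X and 0 of 1 on chromosome 4. Over all protein-coding genes 13.5% were occupied on X, and 14.6% to 16.2% on the large autosome arms.

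Other genes of the translation apparatus were read in the same way. Of the 92 genes whose symbol starts with RpL or RpS, 64 had an IDR summit (69.6%), led by RpL7 (715), RpS27 (669) and RpL32 (508), and 64.5% ± 2.74 in the highest regions of the replicates (SD, n = 3). Of the 35 aminoacyl-tRNA synthetase genes, which include mitochondrial forms, 9 had one (25.7%), led by SerRS (312), IleRS (254) and GluProRS (203), with 23.8% ± 8.73 in the replicates. The translation factor genes, at 29.6%, thus lay nearer to this mixed synthetase share than to the ribosomal proteins, and these differences were not tested. By symbol, PheRS-m was the only mitochondrial form among the 9 synthetase genes with an IDR summit. The 25.7% is thus not the share of the cytosolic forms alone.

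Regulators and partners of the factors had IDR summits at 6 of 16 genes found in the annotation (37.5%), against 15.0% of all protein-coding genes. The strongest was Thor (136), which encodes the 4E-BP that blocks eIF4E. It was followed by NAT1 (127), which encodes a relative of eIF4G, and HBS1 (119), which encodes a GTPase that rescues stalled ribosomes with Pelota. The others were the poly(A)-binding protein gene pAbp (118), pix (101), which encodes the ribosome recycling factor ABCE1, and mxt (95.2). All 6 ranked at 2036 or lower, below 11 of the 16 factor genes, and mxt, at 3512, lay below all 16. None of the 9 mitochondrial translation factor genes in the annotation had an IDR summit, against 15.0% of all protein-coding genes. In the highest regions of the replicates their share was 3.7% ± 6.42 (SD, n = 3). A pooled region was present at 6 of the 9, against 45.1% of all protein-coding genes, the highest at mEFTu2 (rank 6179). These differences were not tested.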

How the data were processed

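ChIP-seq for GFP-tagged Chiffon was read in 3 biological replicates, per the labels. Per the deposited file listings, the authors made a relaxed region list for every replicate and for the pooled reads, each against control reads, and the IDR list came from these 4. Which aligner, caller and IDR cutoff they used is not stated here. Signal value (coverage score of no stated scale), −log10 q and summit offset are the authors' deposited values. The dm3 lists were not used. Depth is unknown, so no interval is given. The labels number the replicates as biological and say no more of their origin.

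Summits were compared with every start site of the Ensembl release 115 annotation (BDGP 6.54, without transposable elements) in Python 3.11.15 with pandas 2.3.3. Of all list regions, 0 ended beyond the reference chromosomes. Replicate regions were matched to IDR peaks by at least 1 bp of overlap, taking the nearest summit. Sequence came from the RefSeq genome of the same assembly. No test was run, since there is 1 group. The summit assignment was checked on simulated positions. The named genes are every factor gene with an IDR summit, their neighbours, the 5 best pooled-only genes and all with no region, plus others to account for each gene. Members, gene lists and motifs were chosen with earlier results of these data known. Of the listed symbols, Tor and mEFG2 did not match the annotation.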

Additional observations from a re-analysis of the deposited data

How the results depend on the processing

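The count of 16 occupied genes became 14 with a window of 250 bp (without eIF1 and eIF2beta), 17 with 1000 bp (with eIF2Bbeta), 15 with each summit given to its nearest start site (without eIF1) and 15 from outermost start sites (without eEF1alpha1). All protein-coding genes gave 11.9%, 17.6%, 11.2% and 13.3%. Among the 1842 strongest IDR peaks it was 10, against 8.63% of all genes, and eIF2D, eIF2beta, eIF3d1, eIF3m, eIF4A and eRF1 were lost by construction of the stricter list. Genes supported by the highest regions of every replicate left in numbered 11 to 13 when 1 replicate was left out, the fewest without replicate 2, and 11 with all 3. By construction this count cannot fall when a replicate is left out, and the IDR list still rested on all 3, so it does not measure stability. The mean count per replicate ranged from 14.5 to 16 for the highest regions and from 29.5 to 37 for whole lists, where it was highest without replicate 1. Median signal of 197 was 174 with 250 bp, 219 with 1000 bp and 91.8 in the pooled list, which holds weaker regions. GC content was 42.8% in windows of 50 bp either side, and the cause was not tested. Of 42 alternatives, 37 stayed within 1.5 times the count or 1 SD. That tally holds the counts of 11 to 13 under both the IDR count of 16 and the replicate support of 11. Under the IDR count they are another quantity than the 16, so the tally does not measure robustness. No paired analysis was possible because there is 1 group. Without read counts, absence of a region does not show absence of Chiffon.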
